A study of Mus musculus with 12 samples.

Results

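The genes described here encode the nuclear subunits of the mitochondrial respiratory chain and of ATP synthase, read from microarrays of injured and sham-operated mouse spinal cord. A gene was a member when the array annotation gave a probe set that single symbol and the symbol was an Nduf gene of the a, b, c, s or v series, one of Sdha to Sdhd, a Uqcr gene, a gene of the Cox4 to Cox8 families or an Atp5 gene. The rule itself used no measured value, though it was set with earlier results of these data known. It gave 78 members of the 12394 genes with a probe set of their own, and all 78 passed the filter on low values, which kept 10371 genes. Complex I had 33 members, complex II 4, complex III 8, complex IV 16 and complex V 17. Each member was represented by its brightest probe set, a group of short oligonucleotides that together read 1 transcript.

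All cords came from wild-type female C57BL/6 mice aged 10 weeks. In the injured group 80% of the cord was cut across after laminectomy, the removal of the overlying bone. In the control group laminectomy was the sole operation; sample titles call these cords naive and other labels call them sham, and they are called sham here. The tissue was 2.5 cm of cord with the lesion at its middle, taken at 9 hours. From each homogenate a small aliquot gave total RNA, and the rest was spun through a sucrose gradient to collect the RNA bound to polysomes, the mRNAs that carry several ribosomes. Labelled cRNA was made from 5 µg of RNA for the total fraction and from 3 µg for the polysome fraction, and each of the 4 groups (total or polysome-bound RNA, sham or injured) had 3 arrays labelled as biological replicates. Whether a replicate was 1 mouse or several is not given in the sources used here.

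The respiratory chain moves electrons from NADH and succinate to oxygen and pumps protons across the inner mitochondrial membrane. Complex I oxidises NADH, complex II oxidises succinate, complex III passes electrons from ubiquinol to cytochrome c, complex IV reduces oxygen, and complex V, the ATP synthase, uses the proton gradient to make ATP. Most subunits are encoded in the nucleus, translated in the cytosol and imported, while a core few are made inside the organelle from mitochondrial DNA and are not covered here. Neurons and their axons depend on this ATP supply, and several complex IV subunits have a second form that is typical of muscle, testis or lung.

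Values are log2 signals as deposited, so a difference of 1 is a doubling. Replicate arrays correlated at 0.993 to 0.998 over the 10371 genes tested. All 9 neuron markers and 6 of 6 oligodendrocyte markers were above the highest control probe set for absent RNA on all arrays of every group. The arrays had not been brought to a common distribution, with group medians between 7.18 and 7.78. The median injury difference of all genes in total RNA was 0.12 as deposited and 0.01 after quantile normalization, and their median polysome minus total difference in sham cord was -0.30 as deposited, 0.05 after quantile normalization and 0.21 after each array was centred on its median. Calls are therefore given on the deposited scale, with quantile-normalized counts for the family and values for many of the members described. The signal of the 3′ end of Gapdh over its 5′ end, a measure of RNA integrity, also differed between groups. It was 0.23 ± 0.05 on sham total RNA, 1.40 ± 0.22 on injured total RNA, 0.87 ± 0.03 on sham polysome and 2.83 ± 0.27 on injured polysome arrays (SD, n = 3). Its part in the injury results below was not tested. In whole tissue, fewer cells of a type and less RNA per cell cannot be told apart.

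In total RNA of injured cord, 53 of the 78 members were higher than in sham cord and 4 were lower (adjusted p under 0.05), but after quantile normalization 2 were higher and 7 lower. Among all genes tested, 42.1% were called higher and 18.1% lower as deposited. The median member difference was 0.24, against 0.12 for all genes. After quantile normalization the member median was -0.01, against 0.01 for all genes, of which 22.8% were called higher and 18% lower. Of the members, 69 lay among the brightest 1038 genes, where the other genes had a median difference of 0.28 and 72.4% were called higher, compared with 0.24 and 73.9% for these members. For 72 of the 78 members no injured array reached the sham range, against 72.7% of all genes. After centring 49 members were higher and 3 lower, against 42.1% and 18.2% of all genes. On the deposited scale 31 members were higher without sham total RNA replicate 2 (35.3% of all genes), and 1 was lower without sham total RNA replicate 3 (16% of all genes). The share called higher among members thus lay close to that of equally bright genes.

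**Figure D1:**
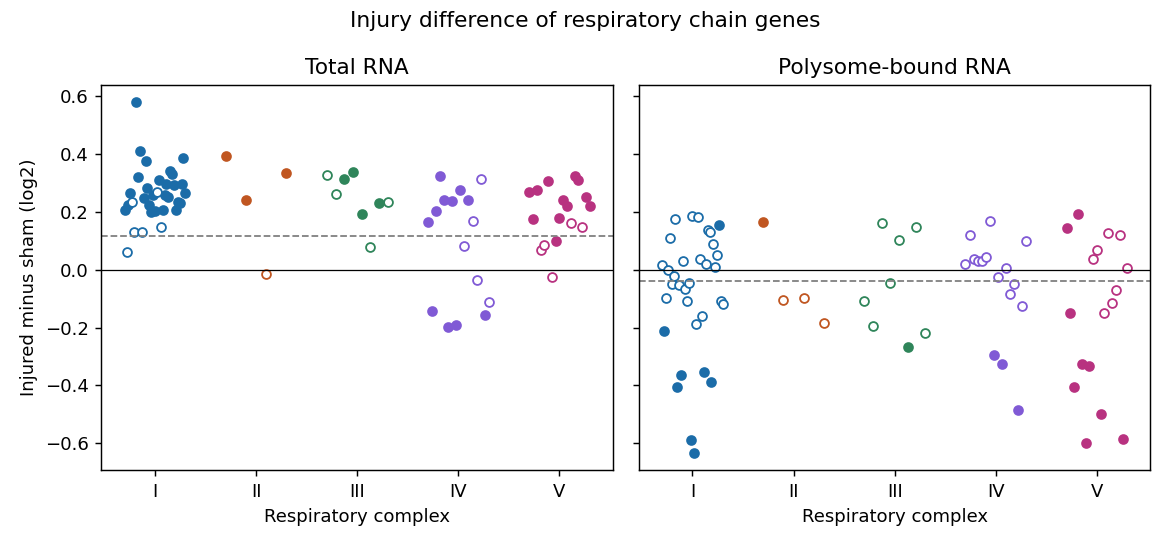
Injured minus sham difference (log2, vertical axis) of each of the 78 members in total RNA (left) and polysome-bound RNA (right), placed by respiratory complex (I to V, horizontal axis). Filled points passed adjusted p under 0.05, open points did not, and the dashed line is the median of all genes, 0.12 on the left and -0.04 on the right; on the left the members lie mostly above 0, which quantile normalization takes to a median of -0.01, and on the right 18 filled points lie below 0 and 4 above.

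Complex I had 27 of 33 members called higher in total RNA and none lower, with a median of 0.26. Ndufa4, an accessory subunit now placed by many authors in complex IV, read 11.34, 11.36 and 11.36 on the sham arrays and 11.93, 11.94 and 11.93 on the injured arrays. The injured arrays stood well apart from the sham arrays. Its rise of 0.58 ± 0.11 (SE, adjusted p = 0.00054), a 1.49-fold level, was the largest of the family and was also called after quantile normalization (0.31, adjusted p = 0.0046). Ndufa6, a small accessory subunit, read 11.03, 11.05 and 11.12 in sham and 11.52, 11.46 and 11.46 in injured cord, a rise of 0.41 ± 0.12 (adjusted p = 0.0074). After quantile normalization that difference was 0.14 (adjusted p = 0.22). Ndufb1 was the other member called higher under both scalings, at 0.28 ± 0.09 as deposited (adjusted p = 0.016) and 0.20 after quantile normalization (adjusted p = 0.039).

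The subunits of succinate dehydrogenase, which is complex II and also an enzyme of the citric acid cycle, were called higher in total RNA for 3 of 4; differences between the genes were not tested. Sdha, the flavoprotein that binds succinate, read 11.78, 11.81 and 11.80 in sham and 12.16, 12.21 and 12.20 in injured total RNA. No injured array came near the sham range, and the rise was 0.39 ± 0.05 (adjusted p = 2.5e-05), or 0.13 after quantile normalization (adjusted p = 0.076). Sdhb, the iron-sulfur subunit, rose by 0.24 ± 0.06 (adjusted p = 0.0048) but stood at -0.02 after quantile normalization. The membrane anchor Sdhd rose by 0.33 ± 0.13 (adjusted p = 0.042; 0.04 after quantile normalization, adjusted p = 0.78), a call that was lost without any single 1 of the 6 total RNA arrays (adjusted p from 0.074 to 0.099) or of the 3 sham polysome arrays (adjusted p from 0.051 to 0.054). Its partner anchor Sdhc read 10.50, 10.56 and 10.58 in sham and 10.47, 10.56 and 10.57 in injured total RNA. Those ranges overlap, and the difference of -0.01 ± 0.09 did not pass the test (adjusted p = 0.90), although after quantile normalization Sdhc was called lower at -0.32 (adjusted p = 0.0016).

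In complex III, 4 of 8 members were called higher in total RNA and none lower. Uqcrc1, a core subunit, read 11.31, 11.32 and 11.37 in sham and 11.66, 11.71 and 11.65 in injured cord, a rise of 0.34 ± 0.06 (adjusted p = 0.00019). Uqcrb, which helps form the ubiquinone site, rose by 0.32 ± 0.06 (adjusted p = 0.00099). Neither passed after quantile normalization, at 0.08 (adjusted p = 0.19) and 0.09 (adjusted p = 0.27).

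Complex V members were called higher in 12 of 17 cases in total RNA. Atp5l, subunit g of the membrane part, read 11.84, 11.83 and 11.89 in sham and 12.13, 12.18 and 12.22 in injured cord, with a rise of 0.32 ± 0.11 (adjusted p = 0.018). That call was lost without sham total RNA replicate 2 (adjusted p = 0.053) or injured total RNA replicate 3 (adjusted p = 0.051). Atp5md, a small subunit involved in pairing of the enzyme, rose by 0.31 ± 0.08 (adjusted p = 0.0045). After quantile normalization neither passed, at 0.06 (adjusted p = 0.62) and 0.05 (adjusted p = 0.50).

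Complex IV held the 4 members called lower in total RNA, beside 7 that were called higher. Its largest rises were Cox5b, at 0.33 ± 0.06 (adjusted p = 0.00045), and Cox6c, at 0.28 ± 0.08 (adjusted p = 0.012), which stood at 0.11 and 0.05 after quantile normalization and did not pass. The 4 lower members were Cox4i2, Cox6a2, Cox6b2 and Cox8b, all of them second forms of subunits whose common form was not lower. They were dim, with mean log2 levels of 6.60 to 7.32, against 11.41 to 13.45 for those common forms. The dimmest 1037 genes held 2 members, Cox4i2 and Cox7c, and so not Cox6a2, Cox6b2 or Cox8b. The other genes there had a median difference of -0.15 and 51.8% were called lower. The part of signal level in this contrast was not tested. For Cox6a, the common Cox6a1 read 13.30, 13.19 and 13.30 in sham and 13.50, 13.48 and 13.53 in injured total RNA, whereas the heart and muscle form Cox6a2 read 7.78, 7.78 and 7.68 and then 7.50, 7.60 and 7.55. The groups of both genes did not overlap, but in opposite directions: Cox6a1 rose by 0.24 ± 0.06 (adjusted p = 0.0021, 0.04 after quantile normalization) and Cox6a2 fell by 0.20 ± 0.06 (adjusted p = 0.0098, and -0.20 with adjusted p = 0.026 after quantile normalization). Cox6a2 was the one member called lower in total RNA under all 3 scalings.

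For Cox6b, the common Cox6b1 rose by 0.24 ± 0.07 (adjusted p = 0.010; 0.02 after quantile normalization, adjusted p = 0.86), while the testis form Cox6b2 read 7.47, 7.49 and 7.50 in sham and 7.31, 7.31 and 7.27 in injured cord. Cox6b2 fell by 0.19 ± 0.06 (adjusted p = 0.019), a call lost after quantile normalization (-0.13, adjusted p = 0.16) and without sham total RNA replicate 3 (adjusted p = 0.052) or injured total RNA replicate 3 (adjusted p = 0.053). For Cox8, the muscle form Cox8b fell by 0.16 ± 0.05 (adjusted p = 0.017; -0.06 after quantile normalization, adjusted p = 0.38), lost without sham total RNA replicate 3 (adjusted p = 0.053) or injured total RNA replicate 1 (adjusted p = 0.065). The common Cox8a, at 0.31 ± 0.14, did not pass (adjusted p = 0.064). Cox4i1 rose by 0.17 ± 0.07 (adjusted p = 0.041), but stood at -0.06 after quantile normalization, and its call was lost without sham total RNA replicate 1 or 2, without any injured total RNA array, or without sham polysome replicate 1 (adjusted p from 0.054 to 0.15). Cox4i2, a form typical of lung, exceeded the absent-RNA controls on 2 of 12 arrays, so its call lower in total RNA rests on signal at background; it stood at 0.0012 after quantile normalization, and the call was lost without sham total RNA replicate 2 or 3 or injured total RNA replicate 1 or 2 (adjusted p from 0.061 to 0.11). Its log2 values were 6.85, 6.96 and 6.92 in sham and 6.73, 6.78 and 6.80 in injured total RNA.

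The Cox7a family completes the pairs. Cox7a2 rose by 0.24 ± 0.07 in total RNA (adjusted p = 0.0098; 0.02 after quantile normalization, adjusted p = 0.82), whereas its muscle form Cox7a1, at 0.08 ± 0.12, and Cox7a2l, which takes part in the assembly of supercomplexes, at 0.17 ± 0.08, did not pass (adjusted p = 0.58 and 0.078). The muscle forms are abundant in skeletal muscle, which borders the dissected cord. The mean log2 level of 8 skeletal muscle markers spanned 6.89 to 7.53 on sham and 6.66 to 7.33 on injured total RNA arrays, and 2 of the 8 in sham and 1 of the 8 in injured cord exceeded the absent-RNA controls on all 3 arrays. Of these markers 1, Mylpf, was called lower in total RNA, at -0.40 (adjusted p = 0.020), and it exceeded the controls on 4 of 12 arrays. The part of muscle RNA in the falls of Cox6a2 and Cox8b was not tested.

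On polysomes the pattern was different: 18 members fell after injury and 4 rose, against 25.3% lower and 13.7% higher among all genes. The members that fell were 23.1% of the 78, close to the share of all genes. The median member difference was -0.05 and that of all genes -0.04. After quantile normalization 18 members were lower and 8 higher, and 17 of the 18 lower members were the same genes, while 18.1% and 22.3% of all genes were called in those directions. After centring 14 members were lower and 15 higher, against 18% and 24% of all genes. Injured and sham arrays did not overlap for 22 members, against 46.3% of all genes. Falls were called under all 3 scalings for 14 members. These were Ndufa6, Ndufa8, Ndufa10, Ndufb2, Ndufb5 and Ndufs4 of complex I, Uqcrfs1 of complex III, Cox6b2 and Cox8a of complex IV, and Atp5c1, Atp5g1, Atp5g2, Atp5j and Atp5o of complex V. The members were uneven, with the 18 falls reaching from -0.15 (Atp5b) to -0.63 (Ndufb5) while the middle of the family lay near 0.

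The injured polysome arrays also differed among themselves more than the others. The mean log2 level over the 78 members was 11.36, 11.54 and 11.70 on injured polysome replicates 1, 2 and 3, against 11.60, 11.68 and 11.57 on the sham polysome arrays. Without injured polysome replicate 3, 30 members were called lower, against 25.5% of all genes. Without sham polysome replicate 2, 13 members were, against 20.4% of all genes. Without injured polysome replicate 1, 13 members were called higher, against 15.8% of all genes. Gapdh 3′ over 5′ on the same injured polysome replicates was 2.90, 2.54 and 3.06, and its part in these differences was not tested.

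Complex I contributed 7 falls and 1 rise on polysomes. Ndufb5, an accessory subunit of the membrane arm, read 11.98, 12.11 and 11.99 on sham polysomes and 10.97, 11.51 and 11.69 on injured polysomes. All injured arrays lay below all sham arrays, with replicate 1 lowest by a wide margin. The fall was 0.63 ± 0.13 (adjusted p = 0.0013), to 0.645 of the sham level, and it was -0.62 after quantile normalization (adjusted p = 7.7e-05). Leaving out 1 array at a time, the difference ranged from -0.78 to -0.42, the latter without injured polysome replicate 1, and stayed called each time.

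Ndufb2, another accessory subunit of the membrane arm, read 11.93, 12.10 and 11.91 on sham and 11.25, 11.40 and 11.52 on injured polysomes. These groups stood clearly apart with a tighter spread than Ndufb5, and the fall was 0.59 ± 0.07 (adjusted p = 2.9e-05; -0.57 after quantile normalization, adjusted p = 1.6e-06). Ndufa6 fell by 0.41 ± 0.12 (adjusted p = 0.012), Ndufs4, an accessory subunit whose loss causes Leigh syndrome, by 0.39 ± 0.11 (adjusted p = 0.011), and Ndufa8 by 0.36 ± 0.09 (adjusted p = 0.0048). The NADH-binding flavoprotein Ndufv1 went the other way. It read 12.16, 12.12 and 12.17 on sham and 12.32, 12.31 and 12.28 on injured polysomes, a small rise of 0.16 ± 0.05 without overlap (adjusted p = 0.015), lost without sham polysome replicate 2 (adjusted p = 0.066) but called after quantile normalization (0.18, adjusted p = 0.012).

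In complexes II and III few members were called on polysomes. Sdha read 11.76, 11.77 and 11.84 on sham and 11.93, 12.03 and 11.91 on injured polysomes. It rose by 0.17 ± 0.05 (adjusted p = 0.016; 0.20 after quantile normalization, adjusted p = 0.007), a call lost without sham polysome replicate 1 (adjusted p = 0.064) or 2 (adjusted p = 0.058) or injured polysome replicate 2 (adjusted p = 0.058). Sdhb, Sdhc and Sdhd, at -0.10, -0.10 and -0.18, did not pass (adjusted p = 0.21, 0.45 and 0.30). Uqcrfs1, the Rieske iron-sulfur protein, read 11.86, 11.91 and 11.81 on sham and 11.44, 11.67 and 11.67 on injured polysomes. Its fall of 0.27 ± 0.06 (adjusted p = 0.005) was the single call of complex III.

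In complex IV, 3 members fell on polysomes and none rose. Cox8a, a small membrane subunit, read 11.29, 11.53 and 11.34 on sham and 10.49, 10.91 and 11.30 on injured polysomes. Injured replicate 3 reached the sham range, so the groups overlap, and the fall of 0.48 ± 0.14 (adjusted p = 0.013; -0.41 after quantile normalization, adjusted p = 0.0067) was lost without sham polysome replicate 2 (-0.41, adjusted p = 0.060) and was -0.28 without injured polysome replicate 1. Cox6b2 fell by 0.30 ± 0.06 (adjusted p = 0.0023), from 6.89 ± 0.09 to 6.59 ± 0.13 (SD, n = 3), with injured replicate 2 not above the absent-RNA controls, so part of its fall is against background. Cox7a1 passed narrowly, at -0.33 ± 0.12 with an adjusted p that rounds to 0.05, did not pass after quantile normalization (-0.21, adjusted p = 0.15) and lost its call on leaving out any of 10 arrays, standing at -0.17 without injured polysome replicate 1 and -0.49 without injured polysome replicate 3. With their brightest probe sets the common forms Cox4i1, Cox5a, Cox5b, Cox6a1 and Cox7a2 had differences between 0.01 and 0.04 on polysomes. Cox6b1 stood at 0.17, and none of these passed. Further probe sets were lower for Cox6a1 at -0.33 (adjusted p = 0.032), Cox7a2 at -0.28 (adjusted p rounds to 0.05) and Cox5b at -0.37 and -0.27 (both called). Those of Cox5a and Cox6b1, and the rest of Cox5b, stood between 0.05 and 0.14 and did not pass.

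In complex V, 7 of 17 members were called lower on polysomes and 2 higher, and after quantile normalization 7 and 0. Within the catalytic head the α subunit Atp5a1 rose by 0.15 ± 0.05 (adjusted p = 0.020) and the δ subunit Atp5d by 0.19 ± 0.06 (adjusted p = 0.028), while the γ subunit Atp5c1 fell. Atp5c1 read 12.30, 12.31 and 12.29 on sham and 11.74, 11.99 and 11.95 on injured polysomes, a fall of 0.40 ± 0.06 (adjusted p = 0.00015; -0.42 after quantile normalization, adjusted p = 6.4e-06). The rise of Atp5a1 did not pass after quantile normalization (0.08, adjusted p = 0.19) and was lost without any sham polysome array or injured polysome replicate 2 (adjusted p from 0.052 to 0.058), and that of Atp5d did not pass either (0.14, adjusted p = 0.068). The β subunit Atp5b fell by 0.15 ± 0.05 (adjusted p = 0.023), but stood at -0.07 after centring (adjusted p = 0.22).

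Falls were also found in the stalk that holds the head to the membrane. Atp5o, which joins the stator to the head, read 12.05, 12.20 and 12.18 on sham and 11.36, 11.65 and 11.66 on injured polysomes. The fall of 0.59 ± 0.07 (adjusted p = 3.6e-05; -0.60 after quantile normalization, adjusted p = 1e-06) showed no overlap. Atp5j, coupling factor F6 of the same stalk, averaged 12.28 ± 0.06 on sham and 11.78 ± 0.21 on injured polysomes (SD, n = 3), without overlap, a fall of 0.50 ± 0.08 (adjusted p = 0.0003; -0.51 after quantile normalization, adjusted p = 1.2e-05). With their brightest probe sets Atp5pb and Atp5h, the b and d subunits of the stalk, stood at 0.01 and 0.07 and did not pass. A second probe set of Atp5pb was called lower, at -0.24 (adjusted p = 0.027). That of Atp5h stood at 0.03 (adjusted p = 0.70). Whether the stalk genes differ from each other was not tested.

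The c subunit, which forms the proton-driven rotor ring, is encoded by Atp5g1, Atp5g2 and Atp5g3. The mature protein is known to be the same from all 3 genes, which differ in their import peptides. Atp5g1 read 10.90, 10.99 and 10.96 on sham total RNA, 11.28, 11.24 and 11.26 on injured total RNA, 11.35, 11.53 and 11.34 on sham polysomes and 10.46, 10.86 and 11.10 on injured polysomes. It therefore moved both ways without overlap, higher by 0.31 ± 0.12 in total RNA (adjusted p = 0.033; 0.02 after quantile normalization, adjusted p = 0.87) and lower by 0.60 ± 0.12 on polysomes (adjusted p = 0.0010), to 0.660 of sham (-0.52 after quantile normalization, adjusted p = 0.00024). The total RNA call was lost without any single total RNA array (adjusted p from 0.058 to 0.091), and the polysome difference was -0.43 without injured polysome replicate 1. Atp5g2 read 10.64, 10.83 and 10.68 on sham and 10.16, 10.41 and 10.58 on injured polysomes. It fell there by 0.33 ± 0.09 (adjusted p = 0.0088; -0.22 without injured polysome replicate 1, still called), and stood at -0.02 in total RNA (adjusted p = 0.83), which quantile normalization turned into a call lower at -0.34 (adjusted p = 0.0006). Atp5g3 read 13.22, 13.26 and 13.24 on sham and 13.24, 13.28 and 13.31 on injured polysomes, a difference of 0.04 ± 0.04 that did not pass (adjusted p = 0.48). In total RNA Atp5g3 was called higher at 0.10 ± 0.04 (adjusted p = 0.035; 0.051 with a replicate block) as deposited and lower at -0.13 after quantile normalization (adjusted p = 0.020). Its deposited-scale call was lost without any sham total RNA array, injured total RNA replicate 2 or 3, or sham polysome replicate 1 (adjusted p from 0.051 to 0.10). Whether the 3 genes differ from each other was not tested.

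**Figure D2:**
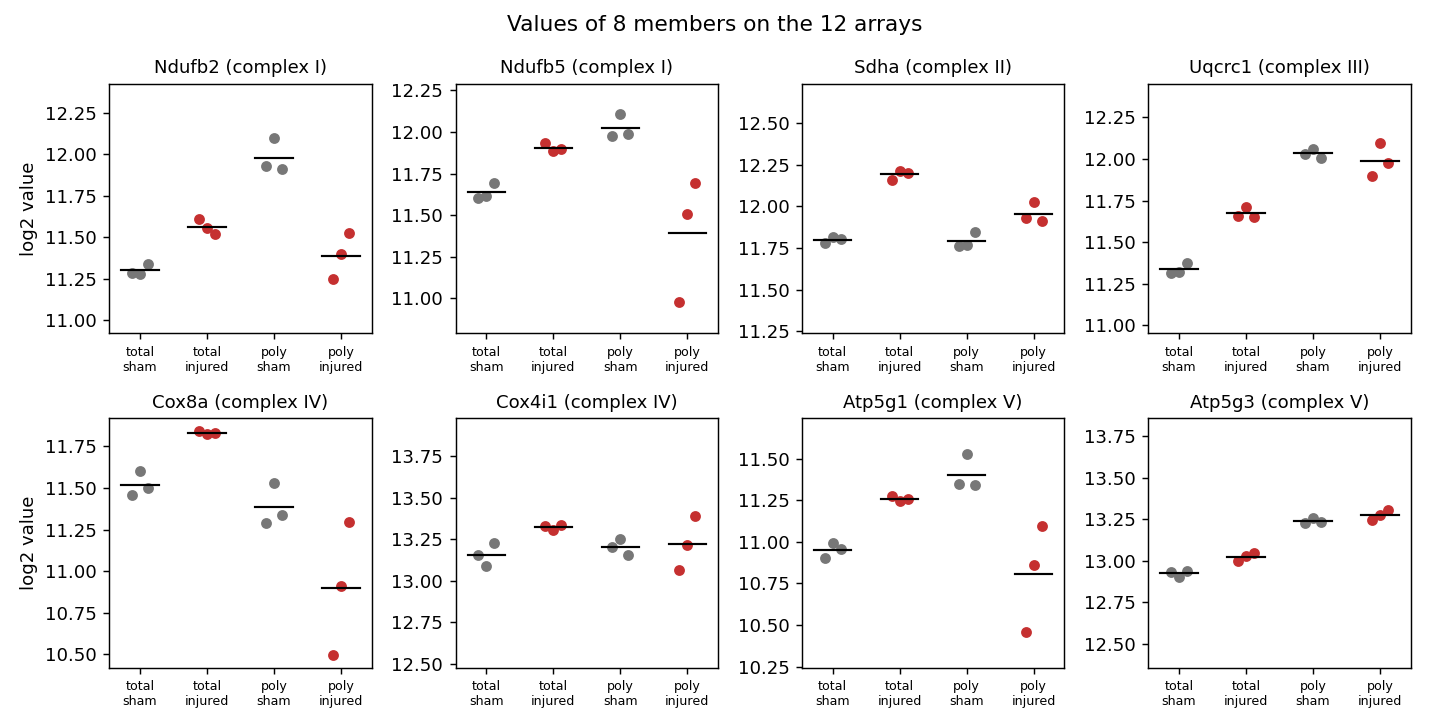
Log2 value of 8 members (one panel each, vertical axes of equal length but different position) on the 3 arrays of each group, with a bar at the group mean; sham arrays are grey and injured arrays red, first for total RNA and then for polysome-bound RNA. Ndufb2, Ndufb5, Cox8a and Atp5g1 are lower on injured than on sham polysomes, with means of 10.80 against 11.40 for Atp5g1, while Atp5g3, Cox4i1 and Uqcrc1 are close to their sham polysome level and Sdha is higher; in total RNA none of the 8 was called higher after quantile normalization, and Atp5g3 was called lower.

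Nuclear respiratory factors are known to bind the promoters of many of these genes, so promoter sequences were set beside the unequal responses. RefSeq windows of 300 bases, from 250 before to 50 after the annotated start on mouse assembly GRCm38.p6, were found for 64 of the 78 members, 69 windows in all. The first 3 below are the c subunit genes, of which Atp5g1 and Atp5g2 fell on polysomes; Ndufb2 is shown for a cyclic AMP response element and Uqcrc1 for a palindromic site of nuclear respiratory factor 1 (NRF-1). Each is written 5′ to 3′ in the direction of transcription, and capitals mark the motif matches of either strand: CCAAT boxes in Atp5g1 (chr11:96075582-96075881, minus strand) and Atp5g3 (chr2:73911277-73911576, minus strand), NRF-1 and a GC box in Atp5g2 (chr15:102670998-102671297, minus strand), a CCAAT box and the response element in Ndufb2 (chr6:39592315-39592614, plus strand), and NRF-1 in Uqcrc1 (chr9:108936398-108936697, plus strand).
Atp5g1: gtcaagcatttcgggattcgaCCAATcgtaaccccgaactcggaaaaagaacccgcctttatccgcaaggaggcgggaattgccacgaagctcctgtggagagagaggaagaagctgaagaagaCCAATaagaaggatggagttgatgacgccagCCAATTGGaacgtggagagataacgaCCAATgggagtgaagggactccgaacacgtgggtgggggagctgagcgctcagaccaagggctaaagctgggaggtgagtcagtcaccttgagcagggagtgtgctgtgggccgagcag
Atp5g2: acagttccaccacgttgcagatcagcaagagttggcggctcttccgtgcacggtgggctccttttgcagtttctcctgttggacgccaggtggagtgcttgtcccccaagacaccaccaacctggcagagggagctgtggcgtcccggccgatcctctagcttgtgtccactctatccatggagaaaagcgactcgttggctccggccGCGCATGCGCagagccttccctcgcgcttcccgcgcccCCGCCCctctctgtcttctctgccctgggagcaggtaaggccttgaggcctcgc
Atp5g3: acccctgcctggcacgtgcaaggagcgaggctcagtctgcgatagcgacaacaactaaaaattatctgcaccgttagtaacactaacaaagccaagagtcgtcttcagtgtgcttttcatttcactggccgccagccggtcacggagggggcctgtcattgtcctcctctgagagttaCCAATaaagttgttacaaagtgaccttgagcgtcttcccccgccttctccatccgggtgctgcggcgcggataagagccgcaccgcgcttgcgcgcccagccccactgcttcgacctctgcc
Ndufb2: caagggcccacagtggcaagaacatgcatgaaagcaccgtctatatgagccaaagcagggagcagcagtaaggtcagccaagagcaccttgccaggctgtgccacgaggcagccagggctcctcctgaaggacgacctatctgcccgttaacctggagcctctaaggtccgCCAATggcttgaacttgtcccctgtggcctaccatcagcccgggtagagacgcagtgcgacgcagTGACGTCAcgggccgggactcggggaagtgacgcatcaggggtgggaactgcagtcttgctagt
Uqcrc1: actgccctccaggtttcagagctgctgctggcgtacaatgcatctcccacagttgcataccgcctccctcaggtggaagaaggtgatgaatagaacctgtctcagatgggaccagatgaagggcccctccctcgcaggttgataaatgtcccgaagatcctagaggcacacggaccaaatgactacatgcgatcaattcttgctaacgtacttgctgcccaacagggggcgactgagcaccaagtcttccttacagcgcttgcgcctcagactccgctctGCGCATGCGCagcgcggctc

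Atp5g1 held 5 CCAAT matches, of which 1 forward and 1 reverse match overlap, Atp5g3 held 1, and Atp5g2 held none but had an NRF-1 match at base 209 of its window. No searched motif was in all 3 c subunit windows. Motifs were searched as exact letters on both strands. The full palindromic NRF-1 site was in 5.8% of member windows, in 0.971% of all 32851 RefSeq windows and in 1.6% of the 12560 windows of genes on the array. Its part GCATGCGC, which every full site contains, was in 13%, 2.71% and 4.29%. The ETS letters CCGGAAG, as bound by GABP (nuclear respiratory factor 2), were in 24.6%, 8.86% and 14%, and the YY1 letters AAGATGGC in 13%, 2.75% and 3.6%. For contrast, the CCAAT letters were in 39.1%, 37.4% and 37.1%, the GC box GGGCGG in 39.1%, 35.7% and 55.4%, and TATAAA in 11.6%, 13.6% and 9.8%. Member windows had a median GC content of 58.3%, close to the 59% of array genes. The response element TGACGTCA was in 4.35%, 1.79% and 2.52%. The members were 3, Ndufa10, Ndufb2 and Uqcrfs1. With their brightest probe sets all 3 fell on polysomes, as did 18 of the 64 matched members in all. A dimmer probe set of Ndufa10 was higher there, at 0.25 (adjusted p = 0.0055). The response element was 1 of 8 motifs looked at, and with 3 genes the count is a description. Falls on polysomes were called for 1 of 4 members with the full NRF-1 site, 3 of 9 with its part, 3 of 17 with the ETS letters, 3 of 9 with the YY1 letters, 8 of 26 with a GC box, 9 of 26 with the CCAAT letters and 0 of 7 with TATAAA. A match describes letters and not binding.

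The difference between the change on polysomes and the change in total RNA, the interaction of operation and fraction, was tested for each member. By complex, 18 of 33 members of complex I, 3 of 4 of complex II, 3 of 8 of complex III, 4 of 16 of complex IV and 10 of 17 of complex V were called lower. In all it passed the test for 38 in that direction and for 2 in the other, against 39.3% lower and 11% higher among all genes. The member median was -0.25 and that of all genes -0.16. Within the brightest 1038 genes, 59.8% of the other genes were called lower with a median of -0.31, against 52.2% and -0.27 for the 69 members there. After quantile normalization 11 members were lower and 6 higher, against 18.1% and 16% of all genes, and all 11 were among the 38: Ndufa6, Ndufa8, Ndufb2, Ndufb5, Ndufc1 and Ndufs4, Cox8a, and Atp5c1, Atp5g1, Atp5j and Atp5o. After centring 24 were lower and 4 higher, against 30.7% and 17.7% of all genes. For 54 members the injured arrays' deviations from their sham mean did not overlap between the fractions, against 67.4% of all genes. The number called lower ranged from 26, without sham total RNA replicate 2 (34.1% of all genes), to 59, without injured polysome replicate 3 (40.2% of all genes). How the members compare with all genes thus depends on that injured polysome array. The largest were Atp5g1 at -0.91 ± 0.16 (adjusted p = 0.00063; -0.54 after quantile normalization, adjusted p = 0.0036), Ndufb5 at -0.90 ± 0.18 (adjusted p = 0.0011; -0.63, adjusted p = 0.0019), Ndufb2 at -0.85 ± 0.10 (adjusted p = 5.2e-05; -0.56, adjusted p = 9.1e-05) and Atp5o at -0.84 ± 0.10 (adjusted p = 5.9e-05; -0.61, adjusted p = 5.4e-05). As deposited, every injured array of these 4 genes deviated from its sham mean upward in total RNA and downward on polysomes. The total RNA difference of Ndufb5, at 0.27, did not pass. After quantile normalization none of the 4 was called higher in total RNA. The 4 genes were picked for the size of their interaction. Cox8a followed at -0.80 ± 0.20 (adjusted p = 0.0046; -0.46 after quantile normalization, adjusted p = 0.028).

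In complexes II and III the interaction was smaller and tied to the scaling. Sdhd stood at -0.52 ± 0.19 (adjusted p = 0.034), Sdhb at -0.35 ± 0.09 (adjusted p = 0.0059) and Sdha at -0.23 ± 0.07 (adjusted p = 0.015), which became -0.15, -0.08 and 0.08 after quantile normalization with none called. The Sdhd call was lost without any total RNA array or sham polysome replicate 1 or 2 (adjusted p from 0.052 to 0.072), and its value was -0.29 without injured polysome replicate 1. Sdhc, at -0.08 ± 0.13, did not pass (adjusted p = 0.62) and was called higher at 0.30 after quantile normalization (adjusted p = 0.029). Uqcrc1 was lower at -0.38 ± 0.08 (adjusted p = 0.0014; -0.12 after quantile normalization, adjusted p = 0.18). Uqcrq, a small subunit near cytochrome b, was lower at -0.45 ± 0.17 (adjusted p = 0.039; -0.11 after quantile normalization), and this call was lost without 8 of the 12 arrays (adjusted p from 0.050 to 0.089), among them injured polysome replicate 1, which left -0.28.

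Within complex IV the interaction ran both ways. Cox6a1 was lower at -0.21 ± 0.08 (adjusted p = 0.036; with a replicate block it rounds to 0.05 and does not pass) and Cox6c at -0.30 ± 0.12 (adjusted p = 0.048), while Cox6a2 was higher at 0.24 ± 0.08 (adjusted p = 0.025) and the background-level Cox4i2 at 0.26 ± 0.07 (adjusted p = 0.0098). After quantile normalization Cox6a2 was called at 0.32 (adjusted p = 0.019) and the other 3 did not pass (adjusted p from 0.12 to 0.38). Cox6a2 lost its deposited-scale call without sham total RNA replicate 1 or 2, injured total RNA replicate 1, sham polysome replicate 3 or injured polysome replicate 1 or 3 (adjusted p from 0.052 to 0.061). Cox6a1 and Cox6c lost theirs without most arrays (adjusted p up to 0.095 and 0.12), Cox6c reaching -0.20 without injured polysome replicate 1. The dimmest 1037 genes held Cox4i2 but not Cox6a2. Of the genes outside the family there, 31.1% were called higher in the interaction and 5.12% lower, with a median of 0.14.

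In sham cord the members were placed high on polysomes: 50 were higher in polysome-bound than in total RNA and 8 lower, against 21% and 59.1% of all genes. The median member difference was 0.32 and that of all genes -0.30. The direction held after quantile normalization, with 45 higher and 10 lower (38.2% and 29.1% of all genes), medians of 0.23 and 0.05, and 44 members called higher under all 3 scalings. After centring 71 were higher and 3 lower, against 54.3% and 18.9% of all genes. The fractions did not overlap for 65 members, against 86.2% of all genes. Bright genes share part of this: within the brightest 1038 the other genes had a median of 0.24 and 57.9% were called higher, against 0.38 and 69.6% of the 69 members there. Since the 2 fractions were labelled from different amounts of RNA and not scaled alike, these differences rank genes and do not measure the share of an mRNA on ribosomes.

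The complexes ranked unevenly. In complex I, 27 of 33 members were higher on polysomes and none lower, with a median of 0.49. Ndufb3, a small membrane-arm subunit, read 10.89, 10.97 and 10.95 in sham total RNA and 12.06, 12.18 and 12.01 on sham polysomes, a 2.22-fold level (1.15 ± 0.08, adjusted p = 1.2e-08; 0.99 after quantile normalization). Ndufs7 at 1.10 ± 0.06 and Ndufs8 at 1.00 ± 0.06, the iron-sulfur subunits next to the ubiquinone site, and Ndufb7 at 0.96 ± 0.07 followed. At the other end of complex I, Ndufa12 stood at 0.00 and Ndufb1 at 0.04 with their brightest probe sets, and neither passed. The dimmest probe set of Ndufa12 was called lower, at -0.49 (adjusted p = 4.6e-05). It was also called lower on polysomes after injury, at -0.50 (adjusted p = 0.00025), where the brightest stood at -0.10 (adjusted p = 0.21).

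Complex III had 6 of 8 members higher and a median of 0.53, led by Uqcrq at 0.85 ± 0.12 (adjusted p = 1.3e-05) and Uqcrc2 at 0.76. The value of Uqcrq rests on its brightest probe set, since it was -0.17 with the mean of its probe sets (adjusted p = 0.0017) and -0.62 without shared-sequence probe sets (adjusted p = 5.8e-07). Uqcr10, a subunit of the same complex, was lower at -0.31 ± 0.14 with an adjusted p that rounds to 0.05 (0.054 with a replicate block), and moved to 0.20 after centring; its call was lost without any total RNA array, without sham polysome replicate 1 or 3, and without injured polysome replicate 2. In complex II Sdhb, Sdhc and Sdhd were higher by 0.38 ± 0.06, 0.31 ± 0.09 and 0.39 ± 0.13 (adjusted p = 6.1e-05, 0.0066 and 0.013). After quantile normalization Sdhb and Sdhd were called, at 0.23 (adjusted p = 0.00058) and 0.25 (adjusted p = 0.029), but Sdhc was not, at 0.16 (adjusted p = 0.055), nor with the mean of its probe sets, at 0.05 (adjusted p = 0.51). Sdha, at -0.01 ± 0.05, did not pass as deposited and was called lower after quantile normalization (-0.18, adjusted p = 0.0065).

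In complex IV calls ran both ways, and whether common and second forms differ was not tested. Cox5a was higher on sham polysomes by 0.70 ± 0.07 (adjusted p = 1.7e-07), Cox6b1 by 0.44 ± 0.07, Cox7a2 by 0.32 ± 0.07 and Cox6a1 by 0.23 ± 0.06. The common Cox4i1, at 0.05 ± 0.07, and Cox8a, at -0.13 ± 0.14, did not pass (adjusted p = 0.53 and 0.39), and after quantile normalization Cox8a and Cox7a2l were called lower, at -0.33 (adjusted p = 0.013) and -0.36 (adjusted p = 0.00012). Of the second forms, Cox6a2, Cox8c, Cox8b, Cox4i2 and Cox6b2 were lower by 0.78, 0.67, 0.67, 0.61 and 0.60 as deposited. After quantile normalization Cox6a2 and Cox8c were called lower (-0.24, adjusted p = 0.0045, and -0.24, adjusted p = 0.021) and the other 3 stood between -0.08 and -0.01. Dim genes were mostly lower as deposited: within the dimmest 1037, 97.3% of the genes outside the family were called lower, with a median of -0.57. Of these second forms, Cox4i2 alone was among those 1037. The muscle form Cox7a1 was higher by 0.36 ± 0.12 (adjusted p = 0.014), which was lost without sham total RNA replicate 1 (adjusted p = 0.057) or sham polysome replicate 2 (adjusted p = 0.071). Cox7c was lowest of all at -1.18 ± 0.05, but its probe set exceeded the absent-RNA controls on 6 of 12 arrays, all of them total RNA, so the value is set by background on polysomes.

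In complex V 8 of 17 members were higher and 1 lower, with a median of 0.18. Atp5d was highest at 0.57 ± 0.06 (adjusted p = 1.3e-06). Atp5e, the ε subunit, stood lowest at -0.22 ± 0.11 and did not pass (adjusted p = 0.071), whereas Atp5b, at -0.18 ± 0.05, was called lower (adjusted p = 0.0036) but stood at 0.33 after centring. Of the c subunit genes, Atp5g1 at 0.45 ± 0.12 and Atp5g3 at 0.31 ± 0.04 were higher (adjusted p = 0.0022 and 2.4e-06), and Atp5g2 at -0.02 ± 0.09 did not pass (adjusted p = 0.87).

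**Figure D3:**
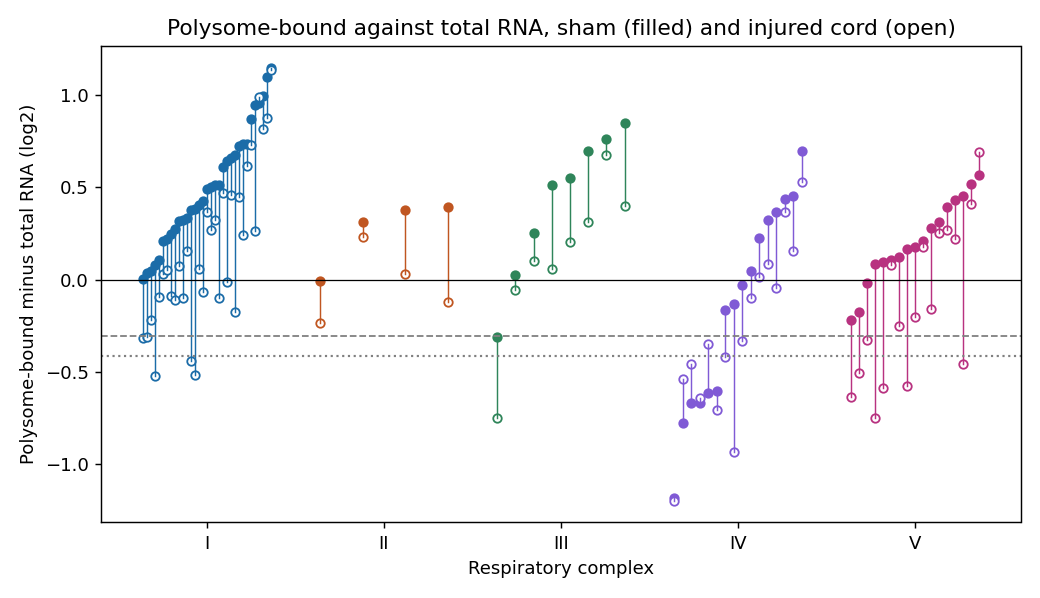
Polysome-bound minus total RNA difference (log2, vertical axis) of each member, ordered within its respiratory complex (horizontal axis) by the sham value; filled points are sham cord, open points injured cord, and a line joins the 2 points of a gene. The dashed and dotted lines mark the medians of all genes, -0.30 in sham and -0.41 in injured cord; most filled points lie above the open ones, and 6 members of complex IV, Cox7c and 5 second forms, have sham values below both lines on this scale.

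In injured cord the same comparison was balanced, with 27 members higher on polysomes and 27 lower, against 13.6% and 72.7% of all genes. The member median was 0.00 and that of all genes -0.41. Within the brightest 1038 genes, 35% of the other genes were called higher and 42.8% lower with a median of -0.06, against 37.7%, 29% and 0.05 for the 69 members there. After quantile normalization 38 were higher and 15 lower, against 40.9% and 32.4% of all genes, so on that scale the share of members called higher was 48.7% against 40.9%. After centring 62 were higher and 2 lower, against 53% and 23.7%, and the fractions did not overlap for 47 members, against 84.8% of all genes. The 27 higher members were called higher under all 3 scalings, and included Ndufb3 at 1.13 ± 0.08, Ndufb7 at 0.99 ± 0.07 and Ndufs7 at 0.87 ± 0.06. Cox8a and Cox7c were called lower under all 3. Cox8a stood at -0.93 ± 0.14 (adjusted p = 1.8e-05) as deposited, against -0.13 ± 0.14 in sham cord. This comparison and that in sham cord share their arrays with the injury comparisons above and with the interaction, and are not separate evidence.

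**Figure D4:**
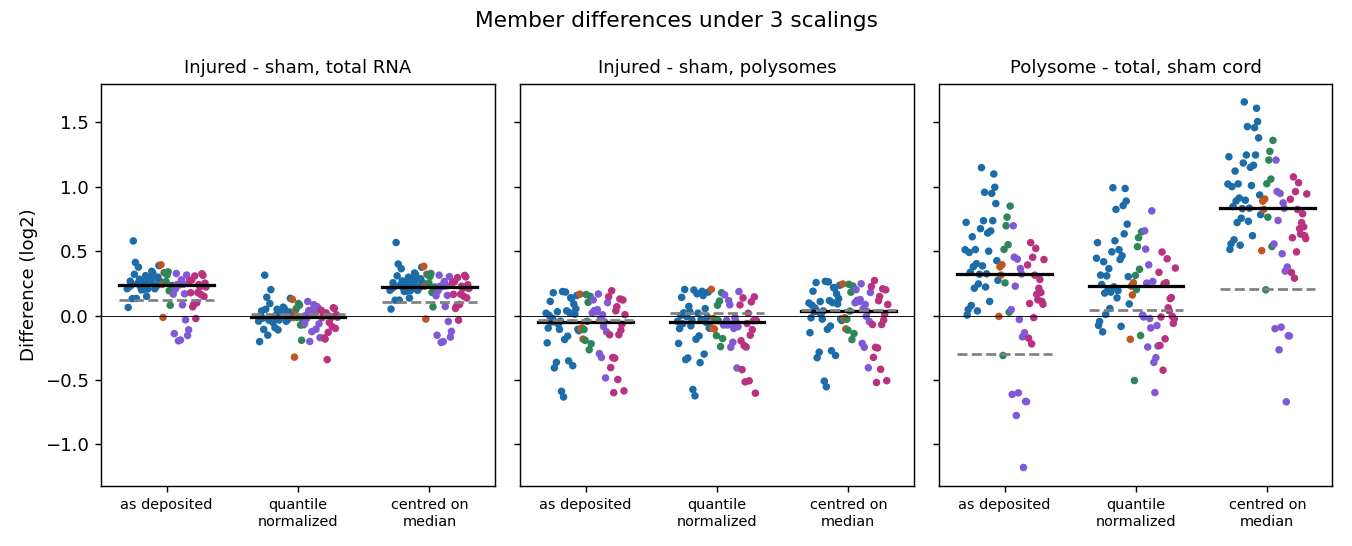
Differences (log2, vertical axis) of the 78 members under the deposited scale, after quantile normalization over 12 arrays and after each array was centred on its median (horizontal axis), for injured minus sham in total RNA (left), injured minus sham on polysomes (middle) and polysome-bound minus total RNA in sham cord (right). Point colours are those of the complexes, the solid bar is the member median and the dashed bar the median of all genes; the total RNA median moves from 0.24 to -0.01 with quantile normalization, while the sham polysome difference has medians of 0.32, 0.23 and 0.83.

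Many members had a second probe set that names the same gene. Which part of the transcript each probe set reads, and whether the parts overlap, was not looked at. Of the 41 members with at least 2 probe sets past the filter, the second brightest lay below the brightest on polysomes after injury in 28, that is 68.3%, compared with 60.6% of the 3989 genes with 2 or more. Both were called lower for 5 members, that is 12.2%, against 14.8% of those 3989 genes. Ndufb2 read -0.59 in both, Cox8a -0.48 and -0.43, Atp5o -0.59 and -0.41, Ndufb5 -0.63 and -0.30, and Ndufc1, a membrane-arm subunit, -0.35 and -0.44. The falls of these genes were therefore seen with both probe sets, though with different sizes for Ndufb5.

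For other members the result changed with the probe set. Ndufv1, whose brightest probe set can match more than 1 transcript by its name, was also higher on polysomes with its second brightest, at 0.15 (adjusted p = 0.034). Its dimmest probe set stood at -0.06 (adjusted p = 0.47). Atp5a1 was higher on polysomes at 0.15 with its brightest probe set and lower at -0.24 with the next, and both passed; in total RNA these 2 probe sets were higher at 0.27 and 0.32 while a dim further one was lower at -0.24. Ndufa10 fell by 0.21 with the brightest probe set and was higher by 0.25 with a dimmer one. Ndufs8 stood at 0.05 on polysomes with its brightest probe set, but 3 others were called lower, at -0.28, -0.19 and -0.59. Cox5b stood at 0.03, while 2 further probe sets were called lower at -0.37 and -0.27, and the fifth, above the absent-RNA controls on 6 arrays, was called opposite to the rest in total RNA (-0.19) and in the interaction (0.32). For Uqcrq all 3 other probe sets were at or near background, exceeding the controls on 0, 0 and 9 arrays, and 1 of them was called opposite in the interaction at 0.20. In the comparisons of fractions, probe sets of Ndufa7, Ndufb9, Ndufs8, Sdhc, Uqcrq and Cox5b in sham cord, and of Ndufa7, Ndufb6, Ndufb11, Ndufs4, Ndufs8, Sdha, Uqcrq, Cox5b, Cox6c and Atp5a1 in injured cord, were also called both ways. Sdha, for example, was -0.24 with its brightest and 0.17 with its second probe set in injured cord, while both agreed on the injury changes (0.39 and 0.38 in total RNA, 0.17 and 0.14 on polysomes).

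**Figure D5:**
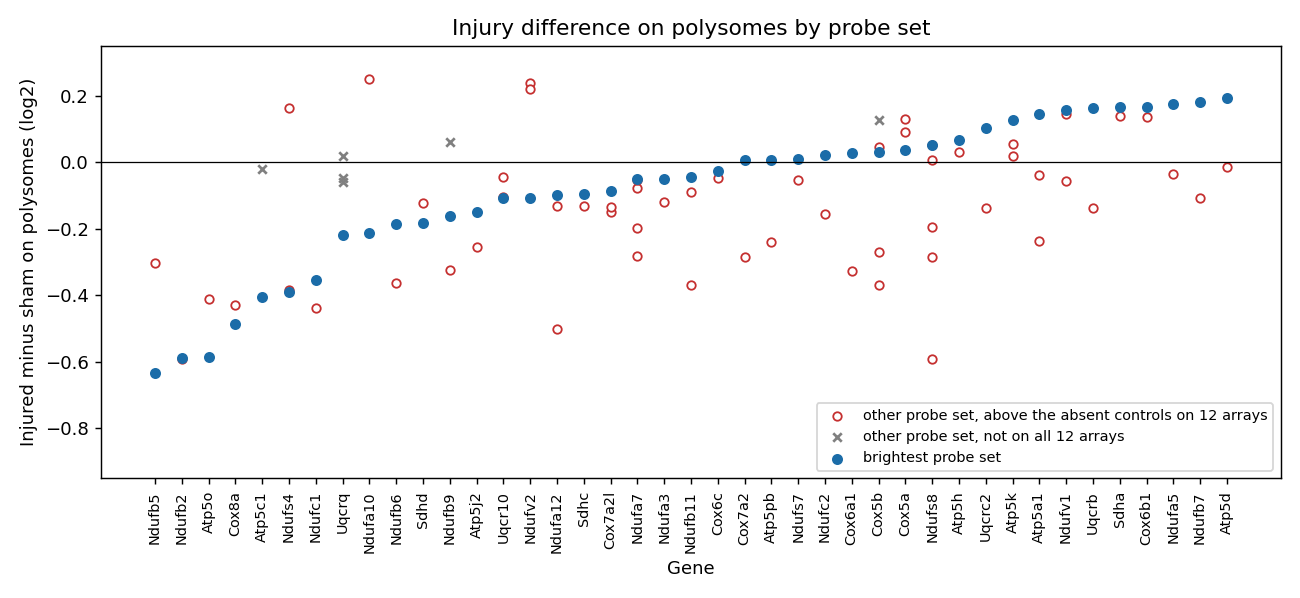
Injured minus sham difference on polysomes (log2, vertical axis) for each probe set of the 41 members with 2 or more (horizontal axis, ordered by the brightest probe set). Blue points are the brightest probe sets, open red points other probe sets above the absent-RNA controls on all 12 arrays, and grey crosses those that were not; for Ndufb2 both lie at -0.59, while for Ndufs8 they spread from 0.05 to -0.59.

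The neighbouring steps of mitochondrial metabolism were read from lists of genes. Among all genes 42.1% were called higher and 18.1% lower in total RNA, and 13.7% and 25.3% on polysomes. After quantile normalization those shares were 22.8% and 18% in total RNA and 22.3% and 18.1% on polysomes. The counts of each list are to be read beside these shares. Of 7 tested genes among other chain subunits and electron carriers, all 7 were higher in total RNA (median 0.26) and 3 were lower on polysomes (median -0.18), and quantile normalization left 0 higher in total RNA and 4 lower on polysomes. Etfdh, which feeds electrons from fatty acid oxidation into ubiquinone, rose by 0.33 ± 0.06 in total RNA (adjusted p = 0.00073; 0.11 after quantile normalization) and fell by 0.42 ± 0.06 on polysomes (adjusted p = 0.0002; -0.29, adjusted p = 0.001). Cyc1, the cytochrome of complex III, and Cycs, cytochrome c itself, fell on polysomes by 0.26 ± 0.07 (adjusted p = 0.013) and 0.22 ± 0.08 (adjusted p = 0.034).

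Assembly factors, the proteins that build the complexes without being part of them, were lower on polysomes in 15 of 33 cases and higher in 1, with a median of -0.20. Among all genes 25.3% were lower there and 13.7% higher. After quantile normalization 13 assembly factors were lower and 1 higher, against 18.1% and 22.3% of all genes. Cox15, needed for the haem of complex IV, fell by 0.57 ± 0.06 (adjusted p = 1.1e-05; -0.43 after quantile normalization), and Cox20 fell by 0.80 ± 0.13 (adjusted p = 0.00038; -0.65). Lrpprc, which stabilises mitochondrial mRNAs, was the exception. It rose both in total RNA, by 0.47 ± 0.07 (adjusted p = 8.4e-05), and on polysomes, by 0.39 ± 0.07 (adjusted p = 0.00054), and both were called after quantile normalization (0.27 and 0.44). In total RNA 11 assembly factors were higher and none lower, against 42.1% and 18.1% of all genes. After quantile normalization 3 were higher and 1 lower, against 22.8% and 18% of all genes.

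Of 15 genes of the citric acid cycle and pyruvate dehydrogenase, 13 were higher in total RNA (1 after quantile normalization), and on polysomes 4 were higher and 6 lower (6 and 5). Of all genes 42.1% were higher and 18.1% lower in total RNA (22.8% and 18%), and 13.7% and 25.3% on polysomes (22.3% and 18.1%). Suclg2, of succinyl-CoA ligase, and Idh3b, of isocitrate dehydrogenase, fell on polysomes by 0.52 ± 0.07 and 0.36 ± 0.06 (adjusted p = 5.1e-05 and 0.00025; -0.41 and -0.38 after quantile normalization), while Ogdh, of the oxoglutarate dehydrogenase complex, rose by 0.34 ± 0.05 (adjusted p = 0.00025; 0.38 after quantile normalization). Among 13 regulators of mitochondrial biogenesis, 6 were higher and 3 lower in total RNA (3 and 4 after quantile normalization), and 3 higher and 4 lower on polysomes (4 and 1). Gabpa and Gabpb1, the subunits of the GABP factor, rose in total RNA by 0.31 ± 0.07 and 0.45 ± 0.07 (adjusted p = 0.0021 and 0.00018), and Tfam, the mitochondrial transcription factor, by 0.34 ± 0.07 (adjusted p = 0.0012), all 3 also called after quantile normalization (0.29, 0.48 and 0.22). Creb1, whose product binds the cyclic AMP response element, fell in total RNA by 0.22 ± 0.05 (adjusted p = 0.0018), but stood at -0.07 after quantile normalization and exceeded the absent-RNA controls on 5 of 12 arrays. The coactivators Ppargc1a and Ppargc1b rose on polysomes by 0.37 ± 0.06 and 0.40 ± 0.06 (adjusted p = 0.0003 and 0.00018; 0.42 and 0.45 after quantile normalization), while Tfb1m fell there by 0.39 ± 0.08 (adjusted p = 0.0011).

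Of 20 genes of mitochondrial protein import, 13 were higher and 1 lower in total RNA (2 and 4 after quantile normalization), and on polysomes 2 were higher and 6 lower (2 and 5). The shares of all genes were 42.1% and 18.1% in total RNA (22.8% and 18%) and 13.7% and 25.3% on polysomes (22.3% and 18.1%). Hspd1, the matrix chaperonin, rose in total RNA by 0.55 ± 0.06 (adjusted p = 4.2e-06; 0.29 after quantile normalization, adjusted p = 0.0027). The intermembrane chaperone Timm9 and the inner membrane channel subunit Timm17b fell on polysomes by 0.52 ± 0.09 and 0.51 ± 0.10 (adjusted p = 0.00048 and 0.0011; -0.38 and -0.38 after quantile normalization), while Timm44, of the import motor, rose there by 0.29 ± 0.05 (adjusted p = 0.00092; 0.34). Of 7 genes of coenzyme Q synthesis, 2 were higher in total RNA, Coq7 and Coq9 (0.33 and 0.31), and 2 lower on polysomes, Coq3 and Coq6 (-0.15 and -0.20), none of which passed after quantile normalization.

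Cell type markers moved in the same comparisons, in which 42.1% of all genes were called higher and 18.1% lower in total RNA. On polysomes 13.7% of all genes were called higher and 25.3% lower. Of 9 neuron markers, 5 were higher and 3 lower in total RNA, and 2 higher and 3 lower on polysomes. Their mean log2 level spanned 11.07 to 11.17 on sham and 10.95 to 11.09 on injured total RNA arrays, and 11.12 to 11.15 and 11.04 to 11.11 on sham and injured polysome arrays. The 6 oligodendrocyte markers spanned 12.42 to 12.53 and 12.51 to 12.67 in total RNA, with 1 called higher, and 11.82 to 11.86 and 11.57 to 11.77 on polysomes, with 1 called lower. Of 6 astrocyte markers 4 were higher in total RNA, and on polysomes 2 were higher and 3 lower. The 5 microglia markers had 3 and 4 called lower in the 2 fractions, and the 4 tested markers of monocytes and neutrophils had 3 called higher in total RNA, S100a8 by 1.37 and S100a9 by 1.59. Of 4 endothelial markers 2 were higher in total RNA and 1 was lower on polysomes, and Alas2, the erythroid marker tested, was higher in total RNA by 0.40. After quantile normalization 22.8% of all genes were higher and 18% lower in total RNA, and 22.3% and 18.1% on polysomes. The neuron markers then had 0 higher and 3 lower in total RNA and 1 and 4 on polysomes. On that scale oligodendrocyte markers had 1 higher and 3 lower in total RNA and 0 and 2 on polysomes, astrocyte markers 2 and 1, then 1 and 2, and microglia markers 0 and 4 in both fractions. The part of these shifts in the members' differences was not tested.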

How the data were processed

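The authors deposited 1 table of log2 signals, 22690 probe sets on 12 arrays; its normalization is not given in the sources used here. Per the array annotation 20393 probe sets named 1 gene, 691 several and 1606 none. A probe set was kept when it exceeded its array's 25th percentile on at least 3 arrays. Each gene's brightest kept probe set entered limma 3.58.1 (R 4.3.3), fitted on 4 groups with an intensity trend and Benjamini-Hochberg adjustment over 10371 genes. P-values measure the spread between arrays labelled biological replicates. The fit was tested on simulated data. Background was judged against 27 control probe sets for absent RNA. Alternatives were other scalings, filters, probe set choices, moderation without the trend, a replicate block and leaving out each array. Same-numbered total and polysome arrays correlated at 0.23, 0.18 and 0.17 (sham) and -0.10, 0.20 and 0.10 (injured) after group means were removed; no label says that a number marks 1 animal. By a limit of 0.1 on every pair the sham arrays count as paired and the injured arrays do not, so the block is an alternative and is given where it changes a call. The members and lists were chosen with earlier results of these data known. Named members were, per complex and injury comparison, the 2 largest rises and 2 largest falls without overlap, the extremes of the sham polysome minus total difference, all Sdh genes, paralog families, members at background and those with opposed probe sets; from each list, up to 3 genes of lowest adjusted p. Further members and genes were named after their values were seen.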

Additional observations from a re-analysis of the deposited data

Results flagged for a closer look

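For 14 members named by the rule for this comparison the injury difference on polysomes differed from that in total RNA by the test of the interaction (limma, adjusted p under 0.05, 3 arrays a group). The difference of the differences was -0.85 for Ndufb2, -0.90 for Ndufb5, -0.35 for Sdhb, -0.52 for Sdhd, -0.23 for Sdha, -0.38 for Uqcrc1, -0.45 for Uqcrq, -0.30 for Cox6c, -0.21 for Cox6a1, -0.80 for Cox8a, -0.84 for Atp5o and -0.91 for Atp5g1. It was 0.24 for Cox6a2 and 0.26 for Cox4i2, the latter at background. After quantile normalization Ndufb2, Ndufb5, Cox8a, Atp5o, Atp5g1 and Cox6a2 were still called. With 3 arrays a group, single arrays were not tested as outliers.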

How the results depend on the processing

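Counts of members called moved with the scaling, the probe sets used and single arrays. The shares of all genes called stand in brackets. In total RNA quantile normalization gave 2 higher and 7 lower (22.8% and 18%), quantile normalization within each fraction 1 and 7 (21.2% and 16.6%), and a filter at the array median 0 lower (8.62%). On polysomes 8 were higher with either quantile normalization (22.3% and, within fractions, 23.5%), 15 after centring (24%), 1 when probe sets of a gene were averaged (11.2%) and 2 without shared-sequence probe sets (11.8%). In the interaction 6 were higher and 11 lower after quantile normalization (16% and 18.1%), 4 and 24 after centring (17.7% and 30.7%), and 0 higher with the median filter (5.75%). For polysome minus total, 3 were lower in sham cord after centring (18.9%) and 2 with the median filter (45.9%). In injured cord 62 were higher and 2 lower after centring (53% and 23.7%), 15 lower after quantile normalization (32.4%) and 17 higher without shared-sequence probe sets (11.6%). Leaving out 1 array at a time, calls ranged from 31 to 62 higher and 1 to 4 lower in total RNA, 1 to 13 and 13 to 30 on polysomes, 1 to 2 and 26 to 59 in the interaction, 44 to 55 and 7 to 10 for sham polysome minus total, and 23 to 34 and 23 to 33 for injured cord. In the fits behind these extremes, 35.3% and 43.6% of all genes were higher in total RNA. On polysomes 20.4% and 25.5% were lower, and in the interaction 34.1% and 40.2%. For polysome minus total, 19.4% and 22.8% were higher in sham cord and 13.2% and 15.1% in injured cord. The replicate block gave 51 and 4 in total RNA (41.2% and 17.7%) and 4 and 18 on polysomes (13.3% and 24.4%). In the interaction it gave 2 and 37 (38.4% lower). It gave 50 and 7 in sham cord (20.7% and 58.9%) and 27 and 27 in injured cord (13.4% and 72.5%). A block nested in operation, added after seeing the data, gave 2 and 36 in the interaction (9.98% and 38.3%). That block gave 50 and 8 in sham cord (20.6% and 59%) and 27 and 26 in injured cord (13.4% and 72.3%). Of the named calls, a replicate block ended those of Cox6a1 in the interaction, Uqcr10 in sham cord and Atp5g3 in total RNA and changed no other. These named values changed sign after quantile normalization: total RNA Sdhb (-0.016), Cox4i1 (-0.061), Cox4i2 (0.0012) and Atp5g3 (-0.13), the interaction of Sdha (0.078), and injured polysome minus total of Cox4i2 (0.15), Cox8c (0.12) and Cox6a2 (0.073). Within fractions the same 4 total RNA values were -0.018, -0.061, 0.0013 and -0.12. After centring, sham polysome minus total of Uqcr10 was 0.20, and that of injured cord 0.37 for Sdha, 0.25 for Cox4i2, 0.18 for Cox7a2l, 0.14 for Cox8c, 0.067 for Cox6a2, 0.28 for Atp5g2 and 0.15 for Atp5g1. With the mean of probe sets, Atp5a1 on polysomes was -0.043 and Uqcrq in sham polysome minus total -0.17. Without shared-sequence probe sets, Cox5b in total RNA was -0.19, Ndufv1 on polysomes -0.055, Atp5a1 on polysomes -0.24, and Uqcrq 0.19 in the interaction and -0.62 in sham polysome minus total. The cause was not tested. Signal over background limits Cox4i2, Cox7c, Cox6b2 and Cox8b.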

Other observations

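Another 6 probe sets matched family symbols but named several genes, so they were not members. The one for Ndufs5 or its pseudogene was higher in total RNA by 0.23 (adjusted p = 0.012) and stood at -0.02 on polysomes (adjusted p = 0.88). Both probe sets of the Ndufb4 group were higher in total RNA, by 0.31 (adjusted p = 0.0065) and 0.33 (adjusted p = 0.019), and lower in the interaction, at -0.42 (adjusted p = 0.0099) and -0.57 (adjusted p = 0.0079). Ndufs6 or its copy was higher in total RNA by 0.27 (adjusted p = 0.025) with an interaction of -0.51 (adjusted p = 0.0067), and Ndufa11 or its copy by 0.25 (adjusted p = 0.017) with an interaction that did not pass, at -0.29 (adjusted p = 0.052). A probe set shared by Ndufb2 and Adck2 was lower on polysomes at -0.16 (adjusted p = 0.022), against -0.59 for the probe sets of Ndufb2 alone.

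Among the 13 biogenesis regulators tested, 3 were called higher in the interaction and 5 lower, against 11% and 39.3% of all genes. After quantile normalization 3 were higher and 2 lower, against 16% and 18.1% of all genes. The coactivators Ppargc1a and Ppargc1b were higher. Ppargc1a, which coactivates the nuclear respiratory factors, stood at 0.56 (adjusted p = 0.00018; 0.82 after quantile normalization), being lower in total RNA by 0.20 and higher on polysomes by 0.37, and Ppargc1b stood at 0.49.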
